A study of Mus musculus with 20 samples.

Results

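The 10 genes described here encode the collagen network of basement membranes: the 6 collagen IV chain genes Col4a1 to Col4a6, the nidogen genes Nid1 and Nid2, and the basement membrane collagen genes Col15a1 and Col18a1. They were chosen by gene symbol, and 15 probe sets of the array name one of them and no other gene. The array holds 12393 genes with such a probe set, of which 8068 were bright enough to be tested, all 10 of these genes among them. RNA was taken from the left lung lobe of mouse embryos of the C57Bl6 background and hybridised to Affymetrix arrays, 1 animal per array. Controls carried a floxed glucocorticoid receptor gene (GR flox, GR being the receptor encoded by Nr3c1), and mutants (GRCol1-Cre) lacked the receptor in mesenchymal cells through a Cre recombinase expressed from a bacterial artificial chromosome with the Col1a2 locus. Each genotype was sampled at embryonic day E16.5 and at E18.5, with 5 animals in each of the 4 groups. A whole lobe also holds epithelium, endothelium and blood, in which the receptor gene was not targeted, and in such bulk samples fewer cells of a type and less RNA per cell cannot be told apart.

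Basement membranes are thin matrix sheets under epithelia and around vessels, muscle and fat. Collagen IV chains assemble as trimers inside the cell and join into a network outside it: the Col4a1 and Col4a2 chains form the trimer found in nearly all basement membranes, the Col4a3, Col4a4 and Col4a5 chains form a trimer of the alveolar and glomerular membranes, and the Col4a6 chain joins Col4a5 chains in membranes such as those of smooth muscle. Nidogens bind laminin and collagen IV and link their networks, and collagens XV and XVIII, the products of Col15a1 and Col18a1, carry sugar chains and sit between the membrane and the tissue around it. In the fetal lung these membranes lie between the thinning alveolar epithelium and the capillaries, where gas will be exchanged after birth.

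The gene pairs of collagen IV lie head to head in the genome, and the start region of Col4a1 and Col4a2 is shown because these neighbours are compared with each other below. In the RefSeq records, Col4a1 and Col4a2 on chromosome 8, Col4a3 and Col4a4 on chromosome 1, and Col4a5 and Col4a6 on chromosome X are each next protein-coding neighbours. RefSeq promoter windows of 300 bases (250 before and 50 after the start, build GRCm38.p6) were found for 8 of the 10 genes, 9 windows in all. The starts of Col4a1 (chr8:11312777-11313076, minus strand) and Col4a2 (chr8:11312555-11312854, plus strand) lie 21 bases apart on opposite strands, so that the windows share 78 bases. These shared bases are in capitals, and one reads as the reverse complement of the other:
Col4a1: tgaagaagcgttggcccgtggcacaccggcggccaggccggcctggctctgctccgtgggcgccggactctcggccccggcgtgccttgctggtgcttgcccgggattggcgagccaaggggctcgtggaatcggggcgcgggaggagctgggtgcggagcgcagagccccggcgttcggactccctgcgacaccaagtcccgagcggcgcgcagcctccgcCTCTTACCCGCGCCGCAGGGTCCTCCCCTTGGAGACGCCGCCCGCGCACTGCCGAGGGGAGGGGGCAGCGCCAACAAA
Col4a2: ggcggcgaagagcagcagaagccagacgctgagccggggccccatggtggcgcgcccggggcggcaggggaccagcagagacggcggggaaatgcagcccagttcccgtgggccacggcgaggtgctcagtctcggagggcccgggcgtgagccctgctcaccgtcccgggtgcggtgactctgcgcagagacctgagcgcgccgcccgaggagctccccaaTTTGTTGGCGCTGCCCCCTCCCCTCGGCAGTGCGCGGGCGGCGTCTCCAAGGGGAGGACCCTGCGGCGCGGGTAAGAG
The starts of Col4a5 and Col4a6 lie 1343 bases apart, and their windows share 0 bases.

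Col4a4 and Col18a1 are shown for contrast, since their called changes with stage in controls and between genotypes at E18.5 were opposite in sign. The window of Col4a4 lies at chr1:82586800-82587099 and those of the 2 recorded Col18a1 starts at chr10:77113656-77113955 and chr10:77166481-77166780, all on the minus strand. Capitals mark matches to CCAAT (the CCAAT box) or GGGCGG (the core of a GC box) on either strand:
Col4a4: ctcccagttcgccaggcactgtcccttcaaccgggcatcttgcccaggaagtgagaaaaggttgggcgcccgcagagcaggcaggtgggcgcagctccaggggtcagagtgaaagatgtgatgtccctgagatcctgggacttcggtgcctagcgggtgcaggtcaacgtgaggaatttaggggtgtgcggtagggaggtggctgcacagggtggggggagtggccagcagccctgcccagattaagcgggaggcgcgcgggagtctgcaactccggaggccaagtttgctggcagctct
Col18a1 start 1: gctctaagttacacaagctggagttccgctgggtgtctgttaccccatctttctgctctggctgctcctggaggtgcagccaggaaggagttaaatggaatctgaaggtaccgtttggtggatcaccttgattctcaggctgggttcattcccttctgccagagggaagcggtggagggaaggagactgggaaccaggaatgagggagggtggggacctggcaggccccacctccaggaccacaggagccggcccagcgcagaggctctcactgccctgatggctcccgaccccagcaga
Col18a1 start 2: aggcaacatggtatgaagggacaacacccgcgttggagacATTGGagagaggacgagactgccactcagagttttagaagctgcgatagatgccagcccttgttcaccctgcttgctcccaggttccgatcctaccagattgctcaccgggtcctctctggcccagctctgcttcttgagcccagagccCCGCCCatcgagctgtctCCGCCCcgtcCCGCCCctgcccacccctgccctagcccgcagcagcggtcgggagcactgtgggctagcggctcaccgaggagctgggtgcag
The Col4a4 window and the first Col18a1 window held neither motif. CCAAT occurred in 5 of the 9 windows (Col4a1, Col4a2, Col4a5, Nid1 and the second Col18a1 start), against 37.4% of all 32851 promoter windows of the same length. GGGCGG occurred in the same 5 and in Col4a6, 6 of 9 windows, against 35.7% of all windows. The Col4a1 match lies in the bases shared with Col4a2 and counts for both windows, and Col4a2 also held matches outside them. TATAAA was in 0 of the 9, against 13.6% of all, and the palindromic glucocorticoid receptor element (AGAACA, any 3 bases, then TGTTCT) was in 0 of the 9 and in 0.00913% of all, 3 windows. Col4a1 and Col4a2 had 74.0% and 73.7% G and C bases, Nid1 64.7%, Col4a4 63.3% and the first and second Col18a1 starts 59.7% and 63.3%. Col4a5 had 52.7%, Col15a1 52.3% and Col4a6 48.3%, beside a median of 52.7% over all windows. These matches describe the letters in the windows and no binding.

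Values are log2 intensities, on which each unit is a doubling, and a value below 4 is called dim. Levels are compared between arrays for the same probe set and never between genes. Calls needed an adjusted p under 0.05 (limma, Benjamini-Hochberg over 8068 genes), and the brightest probe set of each gene was used. Nr3c1 checked the labels: it fell by 1.72 in mutants at E16.5 and fell by 1.62 at E18.5, with no overlap between mutant and control arrays at either stage. The surfactant gene Sftpc read 14.6 to 15.2 on all 20 arrays, the lung transcription factor gene Nkx2-1 was dim on all of them, and 4 kidney markers, of a tissue rich in the Col4a3 trimer, were dim on every array. On a line from the E16.5 control mean (0) to the E18.5 control mean (1) over all genes, E18.5 control replicate 3 lay at 0.704, the other E18.5 controls at 1.02 to 1.09, and the E18.5 mutants at 0.452 to 0.769. The values of genes in which this control stood apart are also given without it. Females made up 1 of 5 embryos among the E16.5 controls and 5 of 5 among the E16.5 mutants, so sex and genotype overlap at that stage, and 3 of 5 and 2 of 5 at E18.5.

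The first comparison asks whether the network genes change between E16.5 and E18.5 in lungs that keep the receptor. In controls, 8 of the 10 genes changed between the stages, 5 higher and 3 lower, in a comparison in which 70.9% of all genes tested were called, 35.3% higher and 35.5% lower. The collagen IV chains Col4a1 to Col4a5 rose, Col4a6, Col15a1 and Col18a1 fell, and Nid1 and Nid2 did not pass the test. For 6 of the 10 genes, 4 higher and 2 lower, the arrays of the stages did not overlap, which held for 51.2% of all genes, 25.9% higher and 25.3% lower. The median difference was 0.41 over the 10 genes and -0.01 over all genes tested.

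Col4a1, which encodes the chain that supplies most of the common trimer, read 13.16, 12.93, 13.08, 13.07 and 13.43 on the E16.5 control arrays and 14.03, 13.97, 13.82, 13.86 and 14.15 on the E18.5 control arrays. Every late array was higher than every early one. The rise was 0.83 (SE 0.086, adjusted p = 8.82e-08), or 1.78-fold, and the second probe set, tested over 12517 probe sets, rose by 1.07. Its partner Col4a2 read 11.47, 11.30, 11.43, 11.61 and 12.00 at E16.5 and 12.94, 12.82, 12.48, 12.59 and 12.92 at E18.5. The stages were apart here too, and the rise was 1.19 (SE 0.12, adjusted p = 7.24e-08), or 2.27-fold.

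Col4a3 and Col4a4 encode chains of the alveolar trimer. Col4a3 was dim on all E16.5 arrays of both genotypes, at 2.22, 1.95, 2.43, 2.42 and 2.63 in controls, and read 7.76, 7.81, 5.76, 6.96 and 7.84 in E18.5 controls. It was thus above the dim level in every late control and in no early lung. The fitted rise was 4.89 (SE 0.43, adjusted p = 1.17e-08), but its size depends on how background correction treats dim values, so it is not read as a fold. The gene passed the brightness filter only through its E18.5 arrays. Its stage calls in both genotypes, also within the counts, are therefore no independent support for a rise. Col4a4 read 6.07, 6.42, 6.07, 6.01 and 6.34 in E16.5 controls and 8.28, 7.98, 6.74, 8.22 and 8.49 in E18.5 controls, a rise of 1.76 (SE 0.25, adjusted p = 3.53e-06), or 3.40-fold. Replicate 3 was the lowest late control for both genes, and without it the rises were 5.26 and 2.06.

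Col4a5, whose chain enters both the alveolar and the Col4a6 trimer, read 10.32, 10.58, 10.55, 10.49 and 10.98 in E16.5 controls and 11.27, 11.25, 10.90, 11.15 and 11.29 in E18.5 controls. The groups overlapped through the highest early and the lowest late array. The rise was 0.59 (SE 0.15, adjusted p = 0.00141), and 0.51 with the second probe set. Its neighbour Col4a6 went the other way: it read 5.68, 5.86, 5.96, 6.37 and 6.04 in E16.5 controls and 5.16, 4.99, 5.59, 4.43 and 4.13 in E18.5 controls, but with the early arrays all above the late ones. It fell by 1.12 (SE 0.39, adjusted p = 0.0160), and by 1.43 with the second probe set. With sex as a covariate the value of Col4a6, an X-linked gene, was -0.83 and did not pass (adjusted p = 0.0572).

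**Figure D1:**
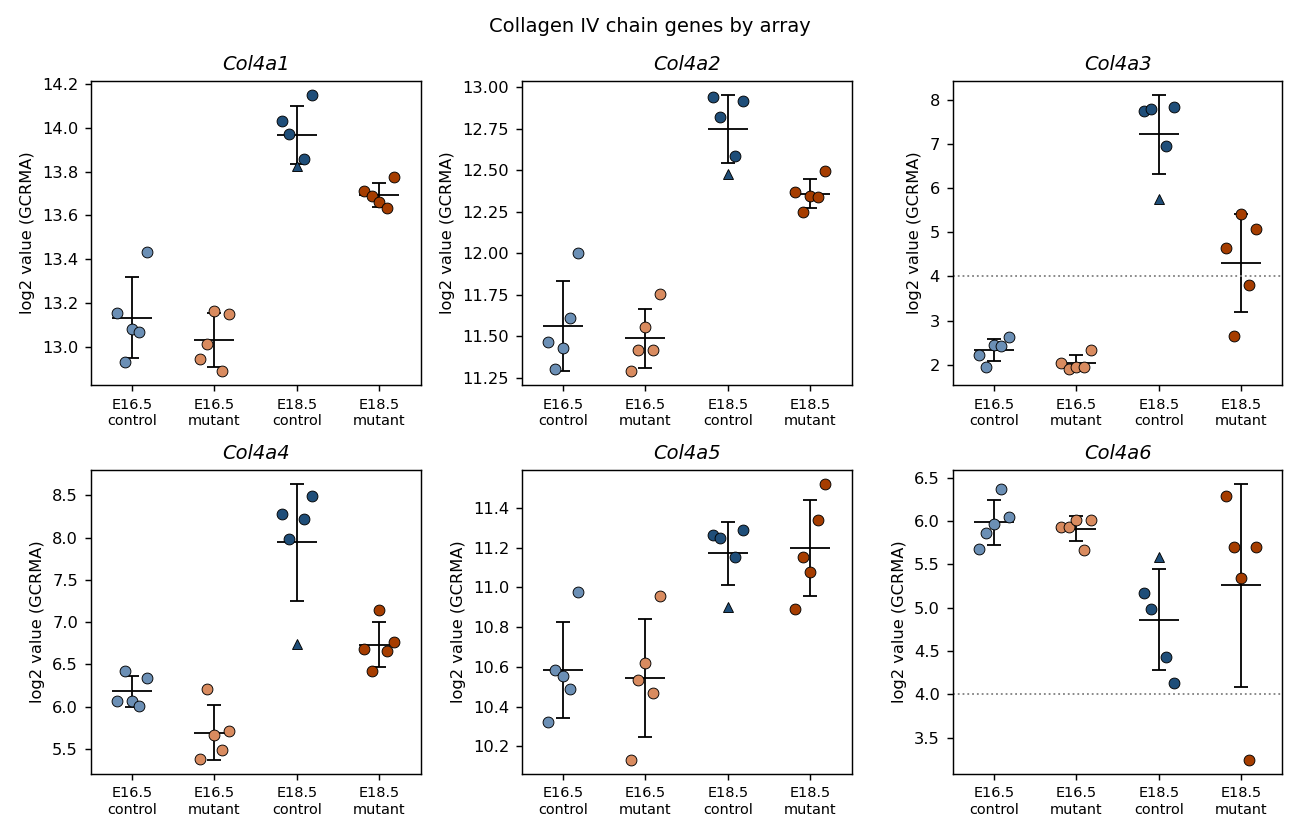
Log2 values (vertical axes) of the 6 collagen IV chain genes on the 20 arrays, by stage and genotype. Points are arrays, lines and bars are mean ± SD (n = 5), the triangle is E18.5 control replicate 3, and the dotted line marks the dim level of 4. Col4a3 lies under that line on every E16.5 array and on 2 of 5 E18.5 mutant arrays, and Col4a6 is lower in E18.5 controls than in both E16.5 groups.

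Neither nidogen gene was called between the stages in controls. Nid1 read 11.31 ± 0.35 (SD, n = 5) at E16.5 and 11.55 ± 0.10 at E18.5, a difference of 0.23 (SE 0.13, adjusted p = 0.107), and without E16.5 control replicate 5, the highest early array at 11.85, it was 0.37 and passed (adjusted p = 0.00337). The second probe set of Nid1 differed by 0.10 (SE 0.13, adjusted p = 0.513) with all arrays. Nid2 read 8.86 ± 0.31 and 9.07 ± 0.31, a difference of 0.21 (SE 0.14, adjusted p = 0.191), which was 0.07 without E18.5 control replicate 3. Both nidogen genes overlapped between the stages. Col15a1 read 5.68, 5.66, 5.63, 5.81 and 7.06 at E16.5 and 4.37, 4.49, 6.44, 4.43 and 4.62 at E18.5, where replicate 3 stood above 4 of the 5 early arrays. It fell by 1.10 (SE 0.36, adjusted p = 0.0106), and fell by 1.49 without replicate 3. Col18a1, the precursor of the angiogenesis inhibitor endostatin, read 11.10, 10.94, 10.96, 10.94 and 11.22 at E16.5 and 9.27, 9.29, 10.84, 9.43 and 9.40 at E18.5. All late arrays lay below all early ones, 4 of them by a wide margin and replicate 3 narrowly. Col18a1 fell by 1.39 (SE 0.28, adjusted p = 0.000191) to 38.2% of its early level, and its second probe set also fell by 1.39. Without replicate 3 the value of the brightest probe set was -1.69.

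**Figure D2:**
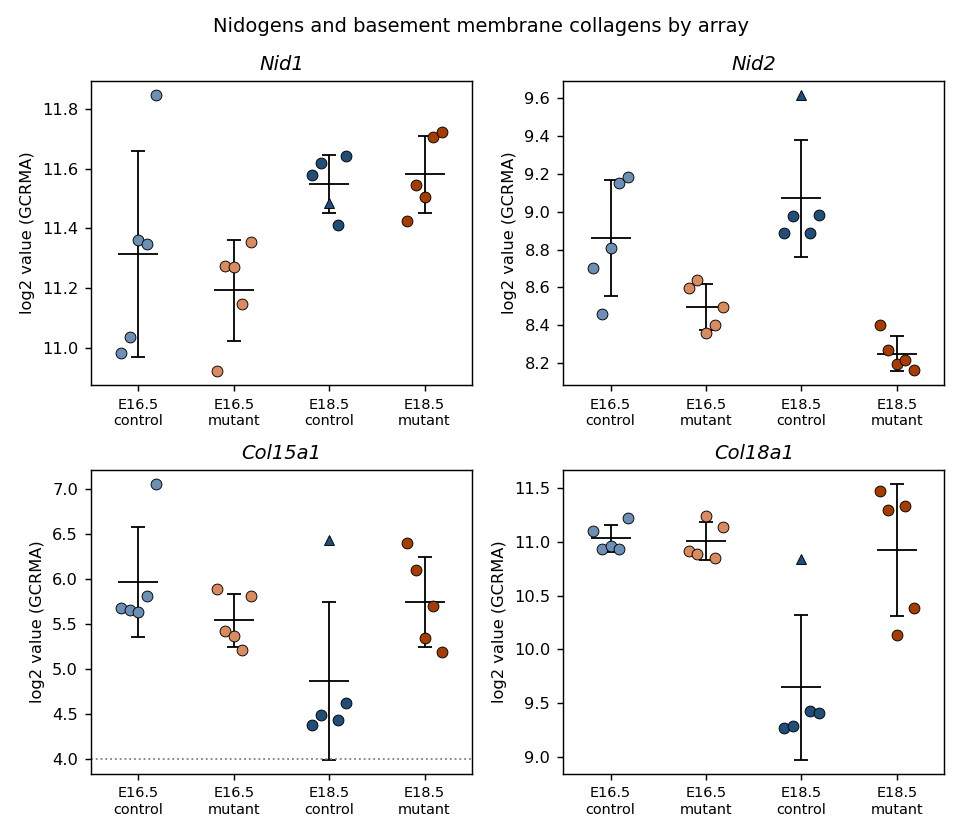
Log2 values (vertical axes) of Nid1, Nid2, Col15a1 and Col18a1 on the 20 arrays, by stage and genotype, with points, bars, triangle and dotted line as for the collagen IV chains. E18.5 control replicate 3 (triangle) stands above the other E18.5 controls in Nid2, Col15a1 and Col18a1, and all E18.5 mutants lie below all E18.5 controls in Nid2.

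In mutants, 6 of the 10 genes changed between the stages, all higher, where 56.2% of all genes tested were called, 28.7% higher and 27.6% lower. Col4a1 rose by 0.66 (SE 0.086), Col4a2 by 0.87 (SE 0.12), Col4a4 by 1.04 (SE 0.25), Col4a5 by 0.66 (SE 0.15) and Nid1 by 0.39 (SE 0.13, adjusted p = 0.0144), and the second probe set of Nid1 rose by 0.45. Col4a3 went from dim on all arrays (1.89 to 2.33) to 4.64, 2.64, 5.41, 3.81 and 5.07, a fitted rise of 2.28 (SE 0.43, adjusted p = 0.000194). The genes that fell in controls did not pass in mutants: Col18a1 differed by -0.08 (SE 0.28, adjusted p = 0.812), Col15a1 by 0.20 (SE 0.36, adjusted p = 0.648) and Col4a6 by -0.65 (SE 0.39, adjusted p = 0.168). The second probe set of Col18a1 differed by -0.35 (SE 0.23, adjusted p = 0.211). Nid2 differed by -0.25 (SE 0.14, adjusted p = 0.138). With sex as a covariate the Col4a6 value became -1.09 and passed (adjusted p = 0.0278). The arrays of the stages did not overlap for 5 of the 10 genes, all higher, where this held for 42.4% of all genes, 22.1% higher and 20.3% lower. Whether the stage changes differed between genotypes is tested by the interaction below.

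**Figure D3:**
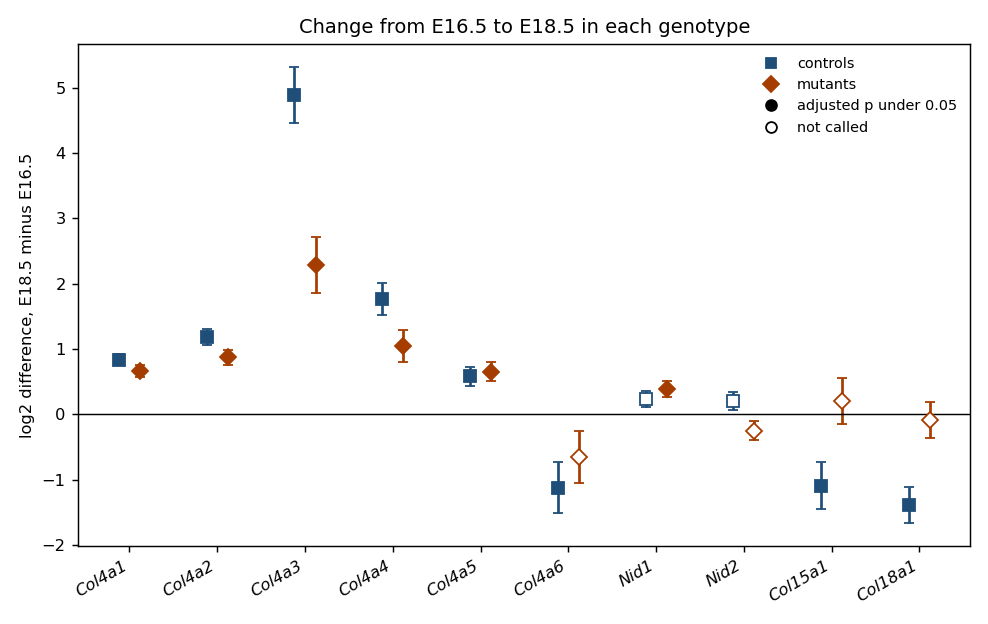
Log2 difference between E18.5 and E16.5 (vertical axis) for each gene in controls (squares) and mutants (diamonds), with bars of ± SE from limma and filled symbols for an adjusted p under 0.05. Col4a1 to Col4a5 lie above 0 and are filled in both genotypes, while Col4a6, Col15a1 and Col18a1 are filled below 0 in controls and open in mutants.

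The next comparison asks what loss of the mesenchymal receptor did to these genes at E16.5. None of the 10 was called by limma, in a comparison in which 0.248% of all genes tested were called, and Nid2 alone had an unadjusted p under 0.05. Nid2 read 8.71, 8.46, 8.81, 9.15 and 9.18 in controls and 8.59, 8.64, 8.36, 8.40 and 8.50 in mutants, with overlapping groups. Its difference was -0.37 (SE 0.14, adjusted p = 0.832). Col4a4 read 6.18 ± 0.18 in controls and 5.69 ± 0.32 in mutants (SD, n = 5), and differed by -0.49 (SE 0.25). That SE includes the spread of the E18.5 arrays. Without E18.5 control replicate 3 it was 0.15, and the gene was still not called (adjusted p = 0.399). Col15a1 differed by -0.43 (SE 0.36), with control replicate 5 at 7.06 against 5.63 to 5.81 in the other controls. The remaining 6 bright genes, Col4a1, Col4a2, Col4a5, Col4a6, Nid1 and Col18a1, differed by -0.12 to -0.02, and Col4a3 was dim in both genotypes. In 0 of the 10 genes were the groups apart, against 1.0% of all genes. The median difference was -0.11, and 0.01 over all genes. Control replicate 5 was the highest of its group for Col4a1, Col4a2, Col4a5, Nid1, Nid2, Col15a1 and Col18a1. This array was the only female among the E16.5 controls. It lay at 0.211 on the stage line, against -0.09 to 0.043 for the other E16.5 controls. The part of sex and of stage position in its values was not tested.

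At E18.5 the same comparison called 6 of the 10 genes, 5 lower and 1 higher in mutants, where 34.5% of all genes tested were called, 15.9% lower and 18.6% higher. Col4a1, Col4a2, Col4a3, Col4a4 and Nid2 fell and Col18a1 rose. In 3 genes, Col4a1, Col4a3 and Nid2, every mutant array lay below every control array, which held for 9.13% of all genes. The median difference was -0.12 over the 10 genes and 0.03 over all genes. These calls stand in a comparison that also called 8 of 12 endothelial markers and 8 of 8 alveolar type I cell markers, all lower.

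Of the 6 collagen IV chain genes, Col4a3 and Col4a4 of the alveolar trimer had the largest falls. Col4a3 read 7.76, 7.81, 5.76, 6.96 and 7.84 in controls and 4.64, 2.64, 5.41, 3.81 and 5.07 in mutants. The lowest control, replicate 3, lay just above the highest mutant, and 2 mutants were dim. Col4a3 fell by 2.91 (SE 0.43, adjusted p = 6.56e-05), to 13.3% of the control level, and fell by 3.28 without control replicate 3. Since 2 mutant values are dim, that share depends on the background correction. Col4a3 would not have passed the brightness filter without these controls. Its call here and its place in the counts are therefore no independent support for a fall. Col4a4 read 8.28, 7.98, 6.74, 8.22 and 8.49 in controls and 6.68, 6.42, 7.15, 6.66 and 6.76 in mutants, so that replicate 3 lay among the mutants and the other controls above all of them. It fell by 1.21 (SE 0.25, adjusted p = 0.00108), to 43.2%, and by 1.51 without that control. Mutant replicate 3 was the highest mutant for both genes. Col4a5, whose chain joins the same trimer, read 11.27, 11.25, 10.90, 11.15 and 11.29 in controls and 10.89, 11.15, 11.08, 11.34 and 11.52 in mutants, with overlapping groups. Its difference was 0.03 (SE 0.15, adjusted p = 0.911), and 0.08 (SE 0.099, adjusted p = 0.594) with the second probe set.

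Markers of the alveolar type I cell, the flat epithelial cell of the gas exchange surface, moved with these genes. Their mean per array was 10.76 to 11.63 in E18.5 controls and 9.76 to 10.75 in mutants, and the median difference of the 8 markers was -0.90. Of other marker lists, 1 higher and 0 lower of 8 type II and general epithelial markers and 2 higher and 1 lower of 6 pericyte markers were called. The calls were 0 higher and 3 lower of 8 fibroblast markers, 0 higher and 1 lower of 6 smooth muscle markers, 0 higher and 3 lower of 3 mesothelial markers, 0 higher and 2 lower of 4 erythroid markers and 1 higher and 0 lower of 7 cardiac markers. Over all genes tested, 18.6% were called higher and 15.9% lower, and a count of few genes says little beside these shares. The median difference was -1.19 for the mesothelial and -1.26 for the erythroid list, and lay between -0.33 (cardiac) and 0.20 (pericyte) for the others. All 3 mesothelial markers were lower in mutants without overlap between the groups, which held for 9.13% of all genes. The part of alveolar type I markers and of the other lists in the Col4a3 and Col4a4 results was not tested.

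Both genes of the common trimer, Col4a1 and Col4a2, also fell. Col4a1 read 14.03, 13.97, 13.82, 13.86 and 14.15 in E18.5 controls and 13.71, 13.69, 13.66, 13.63 and 13.77 in mutants, with the groups apart. It fell by 0.27 (SE 0.086, adjusted p = 0.0200), to 82.8% of the control level, and its second probe set fell by 0.32 (SE 0.11, adjusted p = 0.0400). Col4a2 read 12.94, 12.82, 12.48, 12.59 and 12.92 in controls and 12.37, 12.25, 12.34, 12.34 and 12.49 in mutants, with 4 of 5 mutants below every control. It fell by 0.39 (SE 0.12, adjusted p = 0.0181), to 76.4%. Both calls were lost without single controls: without control replicate 5 the adjusted p was 0.0646 for Col4a1 and 0.0522 for Col4a2, and without control replicate 1 it was 0.0547 for Col4a2. The endothelial list, markers of cells that make this trimer, had a mean of 9.63 to 10 in controls and 9.32 to 9.55 in mutants, with a median difference of -0.43, and its part in these results was not tested.

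Col4a6 did not give 1 answer. Its brightest probe set read 5.16, 4.99, 5.59, 4.43 and 4.13 in E18.5 controls and 6.29, 5.7, 5.34, 3.24 and 5.7 in mutants, with mutant replicate 4 dim and below all controls. The difference was 0.40 (SE 0.39, adjusted p = 0.462). The second probe set read 4.77, 3.13, 5.40, 4.59 and 3.79 in controls and 6.25, 5.71, 5.16, 4.54 and 5.61 in mutants, and passed at 1.12 (SE 0.33, adjusted p = 0.0157). Without mutant replicate 4 the brightest probe set passed too, at 0.90 (adjusted p = 0.00990). The probe sets thus have the same direction and differ in the call, and the gene lies near the dim level on these arrays.

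**Figure D4:**
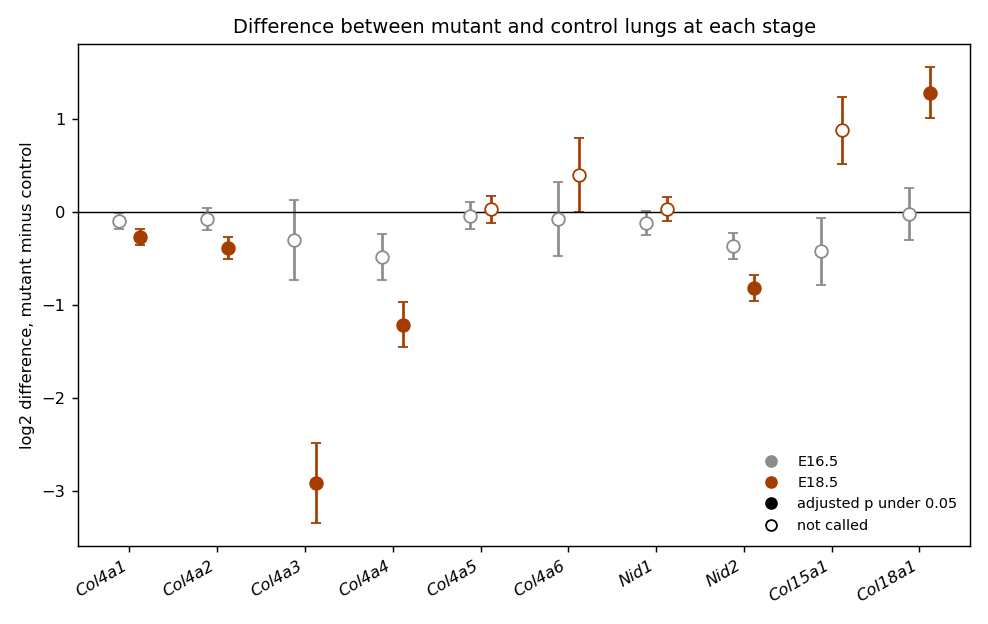
Log2 difference between mutants and controls (vertical axis) for each gene at E16.5 (grey) and E18.5 (orange), with bars of ± SE from limma and filled circles for an adjusted p under 0.05. No E16.5 circle is filled, and at E18.5 Col4a3 lies lowest at -2.91 and Col18a1 highest at 1.28.

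Of the nidogens, Nid2 was called at E18.5 and Nid1 was not. Nid2 read 8.89, 8.98, 9.62, 8.89 and 8.98 in controls and 8.40, 8.27, 8.20, 8.22 and 8.16 in mutants, so that all mutants were below all controls. It fell by 0.82 (SE 0.14, adjusted p = 0.000258), to 56.6%, and by 0.69 without control replicate 3, which was its highest array. The other nidogen gene, Nid1, read 11.58, 11.62, 11.49, 11.41 and 11.64 in controls and 11.43, 11.55, 11.51, 11.71 and 11.72 in mutants, with overlapping groups. Its difference was 0.03 (SE 0.13, adjusted p = 0.872), and 0.12 (SE 0.13, adjusted p = 0.5) with the second probe set. Whether the 2 differences themselves differed was not tested. Nid2 is the one called gene of the 10 for which control replicate 3 lay farther from the mutants than the other controls did.

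Of the basement membrane collagens, Col18a1 rose in mutants and Col15a1 did not pass with all arrays. Col18a1 read 9.27, 9.29, 10.84, 9.43 and 9.40 in controls and 11.47, 11.30, 10.13, 11.34 and 10.39 in mutants. Of the mutants, 3 lay above every control, while replicates 3 and 5 lay below control replicate 3 and above the other 4 controls. It rose by 1.28 (SE 0.28, adjusted p = 0.00171), or 2.43-fold, and by 1.58 without control replicate 3. The second probe set rose by 1.05 (SE 0.23, adjusted p = 0.00245). Col15a1, a close relative, read 4.37, 4.49, 6.44, 4.43 and 4.62 in controls and 6.4, 6.10, 5.35, 5.7 and 5.19 in mutants. Control replicate 3 was the highest of the 10 arrays, and every mutant lay above the other 4 controls. The difference was 0.88 (SE 0.36, adjusted p = 0.0664), and without control replicate 3 it was 1.27 and passed (adjusted p = 0.00131). It also passed without E16.5 control replicate 5 and without E18.5 mutant replicate 5.

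Mitosis markers moved with these collagens: all 9 tested were called higher in E18.5 mutants, where 18.6% of all genes tested were. Their mean per array was 7.62 to 7.75 in E18.5 controls other than replicate 3, 8.89 in replicate 3 and 8.25 to 9.58 in mutants. Among E18.5 mutants, replicates 3 and 5 lay nearest to the controls on the stage line (0.765 and 0.769, against 0.452 to 0.525), and these had the highest Col4a3 and the lowest Col18a1 values of their group. The part of mitosis markers and of the stage position in these results was not tested.

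**Figure D5:**
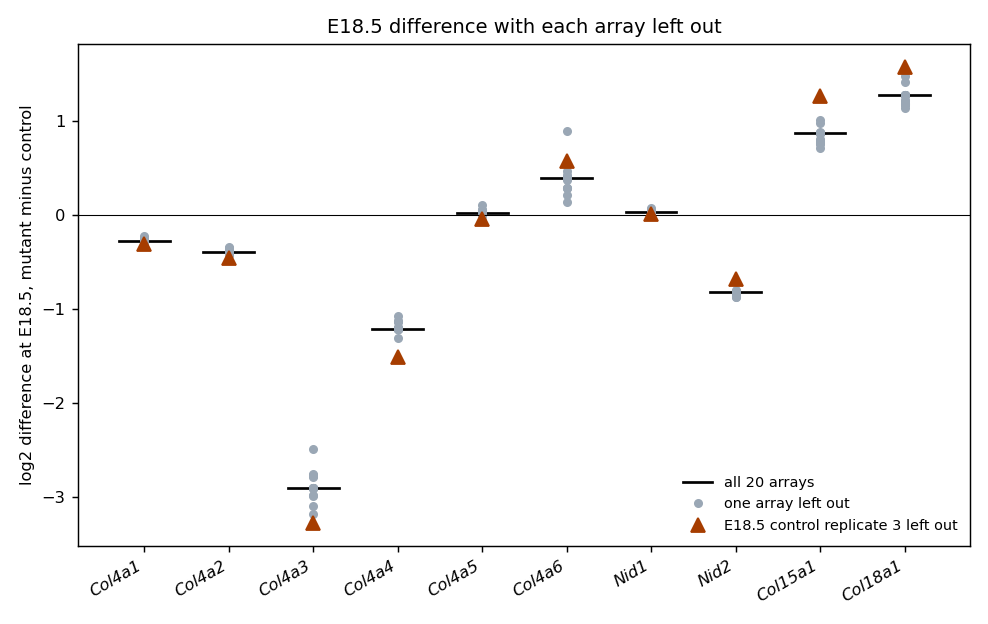
Log2 difference between mutants and controls at E18.5 (vertical axis) for each gene, from all 20 arrays (black lines), with 1 array left out at a time (grey points) and without E18.5 control replicate 3 (triangles). Leaving out that control moves Col15a1 and Col18a1 up and Col4a3 and Col4a4 down, and over all fits with 1 array left out the sign turns only for Col4a5 and Nid1, whose differences lie near 0.

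The interaction asks whether the mutant effect differed between the stages, which is the same as whether the stage change differed between genotypes. It was called for 2 of the 10 genes, where 8.4% of all genes tested were called, 3.62% higher and 4.78% lower: Col4a3 at -2.61 (SE 0.61, adjusted p = 0.0135) and Col18a1 at 1.30 (SE 0.39, adjusted p = 0.0463). Without E18.5 control replicate 3 these values were -2.98 and 1.60. Col4a3 was dim on all E16.5 arrays, so the size of its value is not a fold. A fall at E16.5 could not be seen in this gene, and its interaction largely restates the E18.5 difference. Since the gene passed the brightness filter only with its E18.5 controls, this call is no independent support either. The Col18a1 call was kept in 3 of 20 fits that each left out 1 array, and was lost in the other 17, with adjusted p between 0.00127 and 0.0938. Over all probe sets its adjusted p was 0.0514, and 0.0641 for the second probe set. Col15a1 at 1.30 (SE 0.51, adjusted p = 0.116) and Col4a4 at -0.72 (SE 0.35, adjusted p = 0.204) did not pass with all arrays. Without E18.5 control replicate 3 they were 1.69 and -1.02 and passed, which brought the count to 4. The others lay between -0.46 (Nid2) and 0.47 (Col4a6), with none called. The E18.5 effects of Col4a1, Col4a2 and Nid2 are therefore not shown to differ from those at E16.5.

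The order of the groups differed between the genes. Col4a1 and Col4a2 were highest in E18.5 controls, then in E18.5 mutants, and lowest in E16.5 controls and mutants, which overlapped. Col4a3 and Col4a4 had the same order, with E18.5 mutants at 4.31 ± 1.11 and 6.73 ± 0.26 between E18.5 controls at 7.22 ± 0.90 and 7.94 ± 0.70 and E16.5 controls at 2.33 ± 0.26 and 6.18 ± 0.18 (SD, n = 5). For Col4a4 the lowest E18.5 mutant and the highest E16.5 control both read 6.42. Col4a5 was higher at E18.5 in both genotypes, and the genotypes overlapped at each stage. Nid1 had overlapping genotypes at each stage and was called between the stages in mutants and not in controls. Nid2 ran from E18.5 controls (9.07 ± 0.31) over E16.5 controls (8.86 ± 0.31) and E16.5 mutants (8.50 ± 0.12) to E18.5 mutants (8.25 ± 0.09), and none of the differences between neighbours in this order was called. With the arrays of the mutants alone, the difference between stages in mutants was called (-0.25, adjusted p = 0.0156). Col18a1 was at 11.03 ± 0.13, 11.01 ± 0.17 and 10.93 ± 0.62 in E16.5 controls, E16.5 mutants and E18.5 mutants, and at 9.65 ± 0.67 in E18.5 controls. Col15a1 was also lowest in E18.5 controls (4.87 ± 0.88), after E16.5 mutants (5.54 ± 0.30), E18.5 mutants (5.75 ± 0.50) and E16.5 controls (5.97 ± 0.62), with overlap between neighbours. Col4a6 ran from E16.5 controls (5.98 ± 0.26) over E16.5 mutants (5.91 ± 0.14) and E18.5 mutants (5.26 ± 1.18) to E18.5 controls (4.86 ± 0.58), and the E18.5 mutants overlapped each other group.

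Values of 2 of the 3 gene pairs ran together over the arrays. Pearson's r over the 20 arrays, which share stage and genotype, was 0.99 for Col4a1 with Col4a2 and 0.94 for Col4a3 with Col4a4, and 0.89 and 0.65 once the group means were removed. Col4a5 and Col4a6, also neighbours, had r = -0.58 and -0.23 without the group means. Col15a1 and Col18a1 had 0.83 and 0.81, and Nid1 and Nid2 had 0.14 and 0.33. E18.5 control replicate 3 was the highest of its group in Col15a1 and Col18a1 and the lowest in Col4a3 and Col4a4. It can raise the correlations of these pairs with the group means removed, and they were not computed without it. Of all genes tested, those most like Col4a1 were Myh14 (0.99), Col4a2 (0.99), the endothelial receptor gene Kdr (0.99), Eps8l2 (0.99) and the dystroglycan gene Dag1 (0.98). Those most like Col4a3 were the angiotensin-converting enzyme gene Ace (0.99), the sodium channel gene Scnn1a (0.98), Il6ra (0.98), Slc4a5 (0.98) and Limd1 (0.98). After removal of the group means these 10 correlations lay between 0.77 and 0.93. They describe these arrays and carry no test.

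The companions of the network were read from 4 lists, for which 0 genes were called at E16.5 between genotypes (0 of 10, 0 of 6, 0 of 13 and 0 of 11 tested). The counts in these lists are to be read beside the shares called over all genes, 70.9% for stage in controls, 56.2% for stage in mutants, 34.5% between genotypes at E18.5 and 8.4% for the interaction. Laminins form the other network that nidogens bind. Of 10 laminin and proteoglycan genes, 7 rose between the stages in controls and 9 in mutants, with 0 falling, where 35.3% and 28.7% of all genes rose. At E18.5, 1 of the 10 was called in mutants: Lama4, the laminin chain of vessels, fell by 0.46 (SE 0.098, adjusted p = 0.00140). The list's median was -0.15, beside 0.03 over all genes. Of 6 other basement membrane components, 3 rose and 1 fell with stage in each genotype, and at E18.5 3 were lower and 1 higher in mutants. Smoc2, a calcium-binding matrix protein, fell by 1.47 (SE 0.30), Tinagl1 by 1.34 (SE 0.17) and the integrin ligand Npnt by 0.46 (SE 0.15, adjusted p = 0.0197), and Fbln1, a fibulin, rose by 1.02 (SE 0.24). The Npnt call was lost without E18.5 control replicate 1 and without mutant replicate 4.

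Of 13 genes for folding, modifying, secreting and crosslinking collagen IV, 6 rose and 3 fell with stage in controls, 3 rose and 0 fell in mutants, and 2 were higher and 1 lower in mutants at E18.5. These counts were near the share over all genes in controls and below it in the other comparisons. P4ha2, a subunit of the prolyl hydroxylase that stabilises collagen helices, fell by 0.79 (SE 0.19, adjusted p = 0.00407). The collagen galactosyltransferase gene Colgalt1 rose by 0.14 (SE 0.050, adjusted p = 0.0321) and Crtap, of the prolyl hydroxylation complex of collagens, by 0.27 (SE 0.092, adjusted p = 0.0317), and each of these rises was lost in 7 of the 20 fits with 1 array left out. Of 11 receptor genes, 8 rose with stage in controls and 7 in mutants, and 4 were lower in mutants at E18.5 with 0 higher. The called counts were near the shares over all genes in controls and at E18.5, while 0 were called in the opposite direction. The laminin-binding integrin subunits Itga7 and Itga3 fell by 1.34 (SE 0.27) and 0.82 (SE 0.17), and the collagen receptor Ddr1 by 0.61 (SE 0.12). The receptor median was -0.24. The interaction was called lower for 2 genes each of the other components and of the receptors, and for 0 of the laminins and of the processing genes. With 1 array left out these counts ran from 1 to 3 for the components, from 0 to 3 for the receptors and from 0 to 1 for the processing genes. With array weights they were 4, 5 and 4.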

How the data were processed

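Total RNA of 20 left lung lobes was hybridised to Affymetrix Mouse430A_2 arrays. Per the submitters' processing notes, the authors made the deposited log2 values with GCRMA, which corrects background, scales between arrays and summarises probes. The GCRMA release was not given in the sources used here, and the log2 values were used as deposited. Array medians lay between 5.7 and 5.87, and precision is limited by 5 arrays per group.

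For each gene the brightest probe set (highest mean) naming that gene alone was used. Genes above a log2 value of 4 in at least 5 of 20 arrays were kept, 8068 of 12393. The 4 group means were estimated in 1 model of all 20 arrays by limma 3.58.1, R 4.3.3 (two-sided tests, Benjamini-Hochberg over the genes tested, 5 comparisons). Every probe set of the 10 genes was also tested over 12517 probe sets. Errors are limma standard errors, which pool the spread of the 4 groups, or SD over animals. The spreads were unequal in some genes. In E16.5 controls, E16.5 mutants, E18.5 controls and E18.5 mutants the SD was 0.13, 0.17, 0.67 and 0.62 for Col18a1. For Col4a3 it was 0.26, 0.18, 0.90 and 1.11. In such genes the pooled SE understates the spread of the E18.5 groups compared. On simulated E18.5 data with 8068 genes, a log2 change of 0.5 was recovered in 64% and a change of 1 in 93% of changed genes, and 1.26% of the calls were false. The simulation drew independent normal noise with 1 SD per gene for all groups, and changed 100 genes by each size. The real arrays have unequal spreads and many more called genes, so these rates need not hold for them. Promoter windows and gene order come from RefSeq tables (GRCm38.p6). Plots used matplotlib 3.10.9 (Python 3.11.15).

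The genes named are the 10 genes in every comparison, Nr3c1, up to 3 called genes per direction with the largest change in each of 4 companion lists in each mutant comparison, and the 5 genes most correlated with Col4a1 and with Col4a3. Sex was read from Xist and Y-linked genes. Marker lists covered endothelium, pericytes, alveolar type I and II cells, fibroblasts, smooth muscle, mesothelium, blood, heart, kidney and mitosis. The genes and lists were chosen with earlier results of these data known. Alternatives were leaving out each array, a fit of the compared arrays alone, other filters, quantile normalization or median centring, other uses of the probe sets, a trended robust variance, array weights, and sex or replicate number as a covariate.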

Additional observations from a re-analysis of the deposited data

Results flagged for a closer look

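In 60 groups of 5 arrays (15 probe sets in 4 groups), 8 held an array far from its group by Dixon's ratio, and chance flags about 1 in 20 groups. E18.5 control replicate 3 accounted for 4 of them: it was the highest of its group in Nid2 (9.62), in Col15a1 (6.44) and in both probe sets of Col18a1 (10.84 and 10.09). E16.5 control replicate 5 was the highest of its group in Col15a1, at 7.06. E16.5 mutant replicate 4 was the lowest in Col4a6 (5.66) and in the second probe set of Nid1 (9.71), and E18.5 mutant replicate 1 was the highest of its group in that Nid1 probe set, with 10.81.

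The interaction was called by limma in Col4a3 (-2.61, adjusted p = 0.0135) and in Col18a1 (1.30, adjusted p = 0.0463). Col4a3 was dim on all E16.5 arrays, so a fall at E16.5 could not be seen and its interaction largely restates the E18.5 difference. It passed the brightness filter only with its E18.5 controls, so this call is no independent support for a fall. The Col18a1 call was lost in 17 of 20 fits with 1 array left out. The signs were opposite: the E18.5 effect was more negative than the E16.5 effect in Col4a3 and more positive in Col18a1.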

How the results depend on the processing

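Of the 10 genes, 0 were called at E16.5 under every alternative, and 5 to 7 at E18.5 (4 to 7 with 1 array left out), 6 to 9 for stage in controls and 5 to 7 in mutants. Col4a3, Col4a4, Nid2 and Col18a1 kept their E18.5 calls under every alternative that tested them; Col4a3 was not tested with the filter at 6. The interaction count of 2 was 1 without a filter, with the filter at 6, with every probe set tested and with sex as a covariate, 6 with array weights, and 1 to 4 with 1 array left out, 4 without E18.5 control replicate 3. With the replicate number as a block it was 1, and the Col18a1 interaction had an adjusted p of 0.0692. Same-numbered arrays correlated at -0.10 to 0.60 at E16.5, with 1 of 5 pairs negative, and at -0.43 to 0.21 at E18.5, with 3 of 5 negative, so the numbers were not taken as pairs. Values that turned sign, none called, were, with array weights, Col4a2 (0.0118), Col4a5 (0.0644), Col18a1 (0.091), Itga3 (0.0086) and Itga7 (0.0448) at E16.5, and Col4a5 at E18.5 (-0.0211) and in the interaction (-0.0855). With the mean of probe sets, they were Col4a5 (0.0354), Col4a6 (0.0274) and Ddr1 (-0.0115) at E16.5, and Ddr1 was -0.0102 with median centring. With sex they were Col4a6 (0.51), Itga7 (0.33) and Ddr1 (-0.027) at E16.5 and the Col4a6 interaction (-0.27). With 1 array left out, E16.5 values ran from -0.14 to 0.0345 for Col4a2, -0.15 to 0.06 for Col4a5, -0.15 to 0.0215 for Col4a6, -0.21 to 0.0116 for Nid1, -0.0819 to 0.0254 for Col18a1, -0.0771 to 0.0875 for Ddr1 and -0.0299 to 0.0472 for Itga7. E18.5 values ran from -0.0551 to 0.10 for Col4a5 and -0.0031 to 0.0711 for Nid1, the Col4a5 interaction from -0.0338 to 0.17, and the stage change of Col18a1 in mutants from -0.22 to 0.12. The cause of these changes was not tested. Over all genes, 20 calls at E16.5 became 43 with array weights, 9 with the compared arrays alone and 8 with sex, and 678 interaction calls became 2244 with array weights, 403 with sex and 355 to 1423 with 1 array left out. Companion counts at E18.5 that moved by over 1.5 times were laminins from 1 to 3, processing genes from 3 to between 1 and 5 (1 to 4 with 1 array left out, and 1 to 5 for their stage change in mutants), and receptors from 4 to 7. In the interaction, components went from 2 to 4 with array weights and 1 with sex, processing genes from 0 to 4 with array weights and 1 with the replicate block, and receptors from 2 to 5 with array weights, 0 without a filter, and 1 with the filter at 6 or with sex.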
